A study of Mus musculus with 6 samples.

Results

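The summits described here are the 843 of 1876 entries in a list of N4-acetylcytidine (ac4C) peaks that the authors assigned to a 3' untranslated region. They were chosen by that region label alone, with no measured value in the choice, and lie on 799 transcripts of 735 genes. The list as a whole covers 1485 genes. Its peak numbers run up to 33651, and how the 1876 entries were chosen from the called peaks is not stated. Shares, spacings and missing entries below depend on that choice, and a gene without an entry may still have had a called peak. The RNA came from wild-type 32D cells, a mouse bone marrow cell line that the labels call lymphoblastocytes, grown with 10% serum and 10 ng/mL of interleukin 3 (IL-3). Per the labels, poly(A) RNA was pulled down in 2 libraries with an ac4C antibody and in 2 with IgG, and 2 input libraries had no antibody. The summits were called on the merged ac4C libraries, so each value below is a single pooled value with no replicate error. How deeply each library was sequenced is unknown. The IgG and input libraries gave no values here, so no background measured in controls can be set beside a summit.

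N4-acetylcytidine is a modified cytidine that the acetyltransferase Nat10 writes on ribosomal, transfer and messenger RNA. The 3' untranslated region follows the stop codon and is where many microRNAs and RNA-binding proteins attach, and through them it governs how long an mRNA lasts, where it goes and how well it is translated. Short-lived mRNAs of transcription factors, cytokines and cell cycle regulators are classic examples of such control.

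The fold enrichment of the authors' peak caller is used throughout as the height of a summit. Every fold in the list is a whole multiple of 0.475, within 0.01 of a multiple, which for a MACS2 fold means 1 constant background of 1.11 fragments. A fold of 12.3, the median of the 3' untranslated summits, thus stands for a pileup of 25 fragments. The fold is not corrected for transcript abundance, so a tall summit on an abundant mRNA and strong acetylation of a rare one cannot be told apart.

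Marker genes of cell types were looked up in the list first. Of 15 markers of myeloid progenitors, 4 had a listed summit. Spi1, the gene of the myeloid transcription factor PU.1, and Fcer1g, the gene of an Fc receptor signalling chain, had it in the 3' untranslated region, and Prtn3 and Csf2rb had it elsewhere. None was listed for Mpo, Elane, Ctsg, Cebpa, Kit or Cd34. None of 6 B cell markers and none of 7 T and NK cell markers had a summit in any region. Of 7 erythroid markers Hba-a1 had one, outside the 3' untranslated region, of 5 megakaryocyte markers Pf4 had one within it, and of 9 markers of cells outside the blood Mbp and Shank1 did. A list of summits is not an expression profile, so a marker without an entry is not shown to be unexpressed. Any summit was listed for 9.96% of the regulator genes and 22.8% of the housekeeping genes described below. Marker sets this small therefore cannot identify the cell type.

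Summits in the 3' untranslated region made up 44.9% of the list (Clopper-Pearson 95% interval 42.7% to 47.2%, counting error only), and 49.5% of the listed genes had at least 1. The strongest summit of a gene lay there for 692 genes, 46.6% of all listed. The length of untranslated and coding sequence in the transcripts of these cells was not measured, so this share is not an enrichment over the space available. Of the 735 genes, 643 had 1 such summit, 77 had 2, 14 had 3 and 1 had 4. Among the 92 genes with several, 58 had them on more than 1 transcript, where the same site can be listed once per isoform.

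Position was the plainest difference between regions. The 3' untranslated summits lay at a median of nt 2236 from the transcript start (exact order-statistic 95% interval 2112 to 2386; quartiles 1454.5 and 3509.5), against nt 730.5 for coding summits and nt 130 in the 5' untranslated region. The order follows from the region itself, so it is no independent check of the labels. On all 54 transcripts with both kinds, every coding summit came before every 3' untranslated one. Of the 843 summits, 95 (11.3%) lay before nt 1000, 257 (30.5%) from there to nt 2000, 402 (47.7%) from nt 2000 to 5000, and 89 beyond. Median fold was 14.2 before nt 1000, 12.3 and 11.6 in the next groups, 11.2 between nt 5000 and 10000, and 16.1 for the 15 summits beyond.

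**Figure D1:**
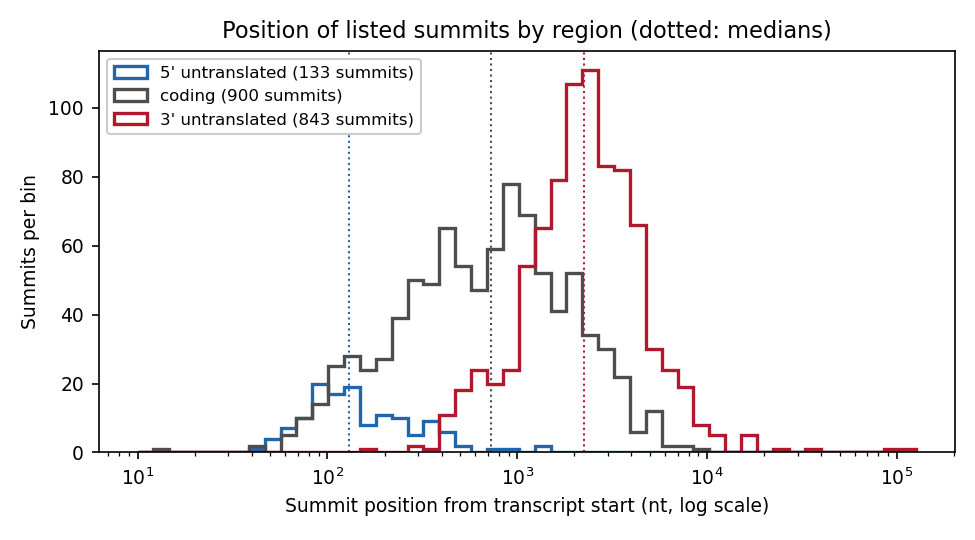
Histogram of the summit position in nt from the transcript start (log axis) for 5' untranslated, coding and 3' untranslated summits; dotted lines mark the medians of nt 130, 730.5 and 2236. The 3' untranslated summits are most frequent around their median, with a thin tail past nt 10000.

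The nearest and farthest summits lay on very different transcripts. The lowest position was nt 172 on Nedd8, which encodes a ubiquitin-like modifier, with a fold of 14.2. It was followed by Trappc6a at nt 279 (7.59), the small nuclear ribonucleoprotein gene Snrpe at nt 307 (16.1), Metrn at nt 366 (4.75) and the mitochondrial thiolase gene Acaa2 at nt 396. The Acaa2 summit, with a fold of 2.85, was also the lowest of the whole list. These low positions depend on the transcript model, whose coding length was not measured. Trappc6a also had a coding summit at nt 331 of another transcript. At the other end were 15 summits at nt 10000 or beyond, where no coding summit lay. The 4 highest positions, nt 24599, 36410, 95093 and 106827, were all on transcript ENSMUST00000020488 of Nopchap1, with folds of 26.6, 10.9, 15.2 and 44.1. All 4 rest on a single very long transcript model, and the gene had no match in the RefSeq table used here. Zfhx3, the gene of a large zinc finger and homeodomain factor, had summits at nt 12007 and 16152 of 1 transcript (8.07 and 16.1) and at nt 16870 of another (16.6). Other distant summits were on Tmem245 at nt 12145 (46.0), on the cyclin-dependent kinase gene Cdk6 at nt 10461 (24.7), on the Argonaute gene Ago2 at nt 10944 (12.3) and on the histone methyltransferase gene Kmt2a at nt 16275 (5.70).

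Where 1 transcript held several listed 3' untranslated summits, 44 neighbouring pairs were spaced by a median of 515 nt (exact order-statistic 95% interval 310 to 844), and 21 of the pairs lay within 500 nt. The closest were on Herpud1, an endoplasmic reticulum stress gene, at nt 591 and 667, with folds of 14.2 and 13.8. Of the 3' untranslated summits 209 (24.8%), both of these included, came from called peaks with several summits. Neighbouring summits are thus not always separate peaks. Slc38a2, which encodes a glutamine transporter, had 3 summits on a single transcript at nt 3099, 3619 and 4019, with folds of 35.1, 31.3 and 29.4. All 3 came from the same called peak. Sumo2, whose product is attached to proteins much as ubiquitin is, had 14.7 and 19.0 at nt 509 and 679 of 1 transcript and 22.3 on another. The RNA helicase gene Ddx17 had folds of 21.4 and 18.0 at nt 2875 and 4445 of 1 transcript, and 15.7 at nt 4435 of another. Morf4l2 and Mrps23 had 3 each on 3 different transcripts with folds from 3.80 to 7.12, near the low end of the list. Naa12 (8.07 to 11.9), Olfr2 (6.65 to 8.54) and Prr13 (16.6 to 19.5) also had 3 on as many transcripts. The folds of Rab5c (22.3 to 32.3) and Trim12c (6.65 to 30.9) came from 2 transcripts each.

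Heights of the 3' untranslated summits differed little from the rest. Their median fold was 12.3 (exact order-statistic 95% interval 11.4 to 12.8; quartiles 7.12 and 20.4), against 10.9 for the 1033 other summits (interval 9.97 to 11.9; quartiles 6.65 and 19.5). The ratio of medians was 1.13, and 1.18 against coding summits alone, with overlapping intervals against all others. Summits at or above the upper quartile of the whole list made up 25.3% of all entries and 26.1% of those in the 3' untranslated region (220), so the tall end was near the background. Under the lower quartile lay 24.5% of all entries and 22.1% of the 3' untranslated ones (186). Among summits at or above the median of the list the ratio turned to 0.976. No test of the difference is given, because summits of a single pooled list are not replicates.

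**Figure D2:**
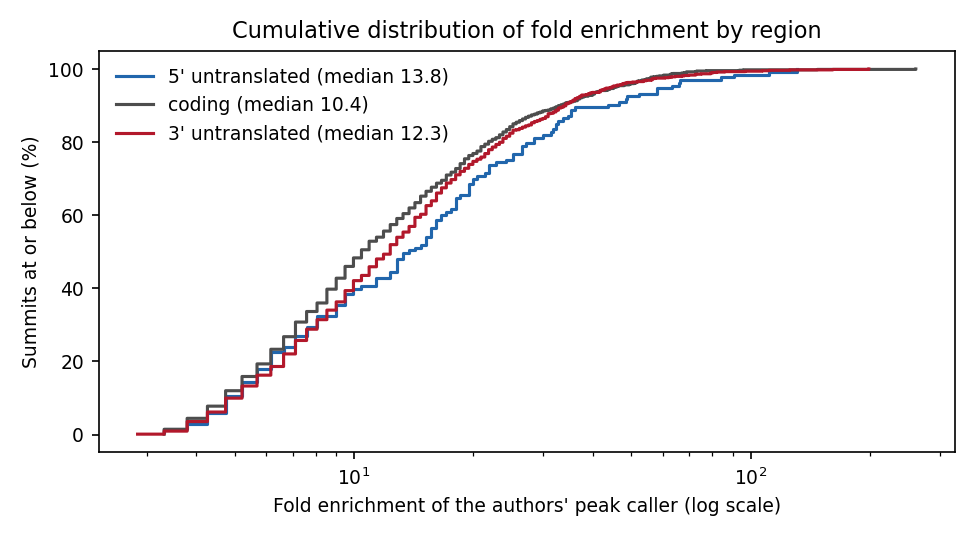
Cumulative share of summits (%) against the fold enrichment of the authors' peak caller (log axis) in each region. The curve of the 3' untranslated summits (median 12.3) lies at its middle between those of coding (10.4) and 5' untranslated summits (13.8), and it meets the coding curve at high folds.

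The tallest 3' untranslated summits belonged to a mixture of gene kinds. Pkm (ENSMUSG00000032294), the gene of the glycolytic enzyme pyruvate kinase, stood highest at 198, a pileup of 417 fragments. Among the 20 genes with the highest folds, 4 were on a regulator list, 4 on a housekeeping list and 4 in chemosensory or neuronal families. Of all 735 genes with 3' untranslated summits, 155 were on a regulator list and 52 on a housekeeping list. The chemosensory families held 24 of them and the neuronal families 13. Beyond the first few, the group held P4hb, a protein disulfide isomerase gene, at 82.1, and Actg1, the cytoplasmic gamma-actin gene, at 79.3. Hdgf, a growth factor gene, had 75, Dad1, a subunit gene of the oligosaccharyltransferase, 72.6, and Cd53, a tetraspanin gene of blood cells, 69.8. Dbi, which encodes an acyl-CoA binding protein, had 64.6, the chaperonin subunit gene Cct6a 63.1, the calcium-binding protein gene S100a4 62.2 and Sae1, a subunit gene of the SUMO-activating enzyme, 60.8. Coding summits were listed for 4 of these 20 genes, against 13.9% of all genes with 3' untranslated summits. The RefSeq spans of 5 overlapped another protein-coding gene, among them Mylk4 with Wrnip1, Ggnbp1 with Bak1, and Cct6a with Psph; with no strand stated, reads of such neighbours may not be separable. Over all listed genes 18.0% overlapped in this way, and over those with 3' untranslated summits 17.3% (126 of 729).

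The question of function was put as regulators against housekeeping genes, with 9 lists on each side. Among genes with any listed summit, the share with a 3' untranslated one was higher for regulators. Of 279 regulator genes with any summit, 155 had one in the 3' untranslated region, or 55.6% (Clopper-Pearson 95% interval 49.5% to 61.5%), and 128 had one in coding sequence. Of 186 housekeeping genes with any summit, 52 had one in the 3' untranslated region, or 28.0% (21.6% to 35.0%), and 132 in coding sequence. Over the whole lists the order was the opposite, with a 3' untranslated summit on 5.53% of 2802 regulator genes and 6.36% of 817 housekeeping genes, since 9.96% of the former and 22.8% of the latter had any summit. Over all listed genes 49.5% had a 3' untranslated and 51.3% a coding summit. Genes on no list had a 3' untranslated summit in 49.0% of cases, so housekeeping genes lay farther from them than regulators did. Of the 9 regulator lists 6 were above the share of all genes, with a range of 42.9% to 69.2%. Only the interval of the kinases (52.4% to 83.0%) lay above that share, and the intervals of the other regulator lists included it. Of the 8 housekeeping lists with 5 or more such genes none was above it, with a range of 13.8% to 40.5%. The intervals of the respiratory chain, chaperone and translation lists lay below it. The gap of 27.6 percentage points is a description of this list, without a test. Untranslated and coding lengths were not measured for either side, so the gap is not an enrichment over the space available. The median 3' untranslated fold was 12.3 for regulators and 17.3 for housekeeping genes, and their coding summits differed in the same direction, with 9.26 and 15.2. The 3' untranslated median was above the coding one in 6 lists of each side. It was below in the ubiquitin, RNA binding, chromatin, proteasome and respiratory chain lists. Their 3' untranslated positions had medians of nt 2456 and nt 1960.5.

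**Figure D3:**
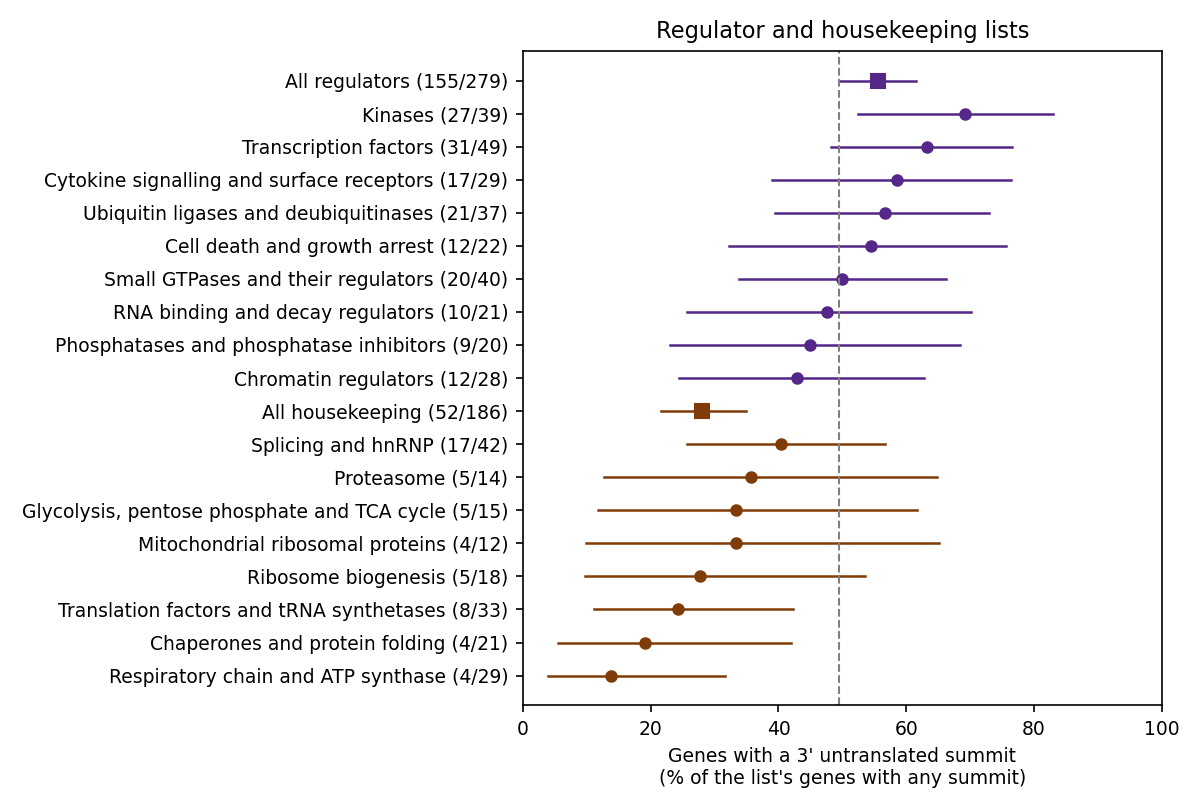
Share of each list's genes with any summit that have a 3' untranslated summit (points; squares for all lists of a side together), with Clopper-Pearson 95% intervals that cover counting error only; the dashed line is the 49.5% of all listed genes. The housekeeping lists, from 13.8% to 40.5%, all lie left of the line, and 6 of 9 regulator lists lie right of it.

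Transcription factors were the largest regulator list, with 3' untranslated summits on 31 of 49 listed genes (63.3%) and a median fold of 12.1. Several central factors of blood development were among them. Spi1 had a single summit of 53.6 at nt 1851 and Myb, a factor of progenitor growth, one of 51.7 at nt 3482. Gata1, known for erythroid and mast cell development, had one of 31.8 at nt 1732. These 3 had no summit in another region, as was the case for 620 of all 735 genes with 3' untranslated summits. The zinc finger gene Zfp60 stood highest at 56.5. Of the Myc network, Mycn had 23.3 (nt 2532), Myc 15.7 (nt 1943), and the antagonists Mxd4 and Mxd3 had 30.4 and 3.80. Yy1 had 26.1 and the serum response factor gene Srf 19.5. Of the STAT genes, which act below cytokine receptors, Stat6 had 12.3, Stat3 6.65 and Stat5b, which carries the IL-3 signal, 3.80 and 3.32 on 2 transcripts. Zbtb11 was lowest, also at 3.32. No summit was listed for Runx1, Gata2, Cebpa or Trp53.

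Kinases had the highest share of any regulator list, with 27 of 39 genes (69.2%), but a median fold of only 9.97. Mapkapk2, which acts below p38 and controls the stability of cytokine mRNAs, had 56.5 at nt 2745. Akt1, the kinase of phosphoinositide signalling, had 39.4, Nek6 30.9 and the mitotic kinase gene Plk1 26.1. Csk, a brake on Src family kinases, had 22.8. Cdk6 had 24.7 and 17.6 on 1 transcript, spaced by 3921 nt. Jak1, a cytokine receptor kinase, had 9.97 and 8.07, and the Src family gene Lyn 8.07 and 7.12. The lowest was Pik3r1 at 4.75. Jak2 and Kit had no listed summit. Pim1, an IL-3 response gene, had a 5' untranslated summit of 25.2 and a coding summit of 10.9, and none in the 3' untranslated region.

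Phosphatase genes had 3' untranslated summits in 9 of 20 cases (45%). Inpp4a, a phosphoinositide phosphatase gene, was far above the others at 107. The calcineurin catalytic subunit genes followed with 48.9 on Ppp3ca and 17.1 on Ppp3cb. Ptpn6, which encodes the SHP-1 phosphatase that dampens cytokine receptors, had 16.6 and 12.3, and Arpp19 was lowest at 4.27.

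Genes of cytokine signalling and the cell surface had 17 of 29 (58.6%) and the highest median fold among the regulator lists, 16.6. After Pf4, a platelet chemokine gene (125 at nt 524), and Fcgr2b, an inhibitory Fc receptor gene (111 and 24.2 at nt 2500 and 2718), came Cd53 and Fcer1g, the latter at 44.6 (nt 438). Ccr4, a chemokine receptor gene, had 35.6 and Itga4, an integrin gene of progenitor homing, 19.5. Cd47, a "do not eat me" signal, had 3 summits there at 19.5, 18.5 and 13.8, each on another transcript, beside coding summits. Igf1r and Insr, the genes of the related IGF1 and insulin receptors, had 13.3 at nt 8636 and 11.9 at nt 8696. The interferon receptor gene Ifnar1 was lowest at 4.27. Cish, a feedback inhibitor of cytokine signalling, had a summit of 16.6 in the 5' untranslated region alone.

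Ubiquitin ligase and deubiquitinase genes had 21 of 37 (56.8%), with a median fold of 14.7 against 15.4 for their coding summits. Ube2c, the mitotic ubiquitin-conjugating enzyme gene, reached 54.6, Rnf187 47.9, Ddb1, a Cul4 ligase adaptor gene, 41.3, and Rnf166 32.8. Trim44 was lowest at 4.75. Small GTPase genes and those of their regulators had 20 of 40 (50%), close to all listed genes. Cdc42, a master switch of the actin cytoskeleton, had 48.4, and the membrane traffic genes Rab5c and Rab32 had 32.3 and 30.4. Arl8b, a lysosome transport gene, had 28.5, and Sipa1 was lowest at 3.80. Rab18 had 3 summits between 12.8 and 17.6 on 2 transcripts.

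Cell death and growth arrest genes had 12 of 22 (54.5%), with a median fold of 13.1 against 7.12 for their coding summits. Casp4, an inflammatory caspase gene, had 37.5, Birc3, an apoptosis inhibitor gene, 21.8, and Bid, a pro-apoptotic Bcl2 family gene, 20.9. Cdkn1a, the p21 cell cycle inhibitor gene, had 19.5 at nt 648, and the survival gene Bcl2l1 had 9.02. Bnip2 was lowest at 6.17, and Mcl1 had no listed summit.

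RNA binding and decay genes had 10 of 21 (47.6%; Clopper-Pearson 95% interval 25.7% to 70.2%), with a median fold of 8.54. Khsrp, which promotes decay of AU-rich mRNAs, had 35.6, and Tnrc6a, a microRNA silencing partner of Argonaute, 19.0. The RNA methylation genes Nsun2 and Wtap both had 13.3 and Zfp36, the tristetraprolin gene, had 8.07. Nat10 and its adaptor gene Thumpd1 had no summit. Chromatin regulators had 12 of 28 (42.9%; interval 24.5% to 62.8%, which spans the share of all genes) and the lowest median fold of any list, 7.12, against 8.07 in coding sequence. Their summits lay at a median of nt 4457, and none of the 15 reached the upper quartile of the list. Atrx, a remodeller gene, had 17.6 at nt 9355, the DNA methylation maintenance gene Uhrf1 15.2 and Chd1 14.2. Mbd3 was lowest at 4.75.

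Among housekeeping lists the respiratory chain and ATP synthase stood at the low end. Only 4 of their 29 listed genes had a 3' untranslated summit (13.8%; Clopper-Pearson 95% interval 3.89% to 31.7%), against 24 with a coding one. Their median 3' untranslated fold was 31.8, against 37.0 for their coding summits, and all 4 lay before nt 1000, with 57.4 on the complex I gene Ndufa8 (nt 700), 34.2 on Atp5g1 (nt 603), 29.4 on Atp5d (nt 713) and 13.3 on Ndufa11 (nt 442). Chaperone genes had 4 of 21 (19.0%), which besides P4hb and Cct6a were the Hsp90 co-chaperone gene Cdc37 at 36.1 and Dnajb1 at 12.3. Translation factor and tRNA synthetase genes had 8 of 33 (24.2%) against 23 with a coding summit. Aars, an alanyl-tRNA synthetase gene, had 42.7, Eif1ad 37.0, Eif3b 36.1 and Eif4a2 18.5, and Nars2 was lowest at 5.70.

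Ribosome biogenesis genes had 5 of 18 (27.8%), led by Rrs1 at 46.0, Wdr46 at 39.9 and the polymerase subunit gene Polr1c at 27.1. Mitochondrial ribosomal protein genes had 4 of 12 (33.3%), with Mrpl17 at 19.5, Mrpl46 at 18.0 and Mrpl10 at 15.2, and the lowest median position after the respiratory chain, nt 946. Central carbon metabolism had 5 of 15 (33.3%). After Pkm these were Slc16a1, a lactate transporter gene, at 41.8, the pentose phosphate gene Pgls at 28.5, Pfkl at 22.8 and Pdha1 at 5.70. The proteasome had 5 of 14 (35.7%), with Psmd14 at 38.4, Psma7 at 20.9 and 3 others from 9.97 to 11.4. Its median fold was 11.4, against 21.1 for its coding summits. Splicing and hnRNP genes came nearest to the regulators, with 17 of 42 (40.5%). Sf3b5 had 85.9, the helicase genes Dhx15 and Ddx39b 43.2 and 35.1, Sfpq 37.0 and Hnrnpk 3.80. Neither of the 2 cytosolic ribosomal protein genes in the list had a 3' untranslated summit.

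Lists on neither side differed from each other. Solute carrier genes had 3' untranslated summits in 15 of 20 cases (75%; Clopper-Pearson 95% interval 50.9% to 91.3%), among them the amino acid transporter genes Slc7a5 at 41.8 and Slc38a2 at 35.1, and Slc25a30 at 33.7. Slc25a36 was lowest at 3.80. Cell cycle and replication genes had 19 of 41 (46.3%), close to all genes, but with a median fold of 17.6 against 7.59 for their coding summits. Cdca8, a chromosomal passenger gene, had 53.6, Mki67, the proliferation marker gene, 34.7 at nt 9804, the spindle motor gene Kif11 29.0, and Pds5a 4.75.

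Genes that held both coding and 3' untranslated summits allow a comparison within the gene. In 11 called peaks the listed summits lay in both regions, so summits of both kinds are not always separate peaks. There were 102 of them, 13.9% of genes with 3' untranslated summits (Clopper-Pearson 95% interval 11.5% to 16.6%) and 13.4% of genes with coding summits. Without genes whose summits lie on more than 1 transcript the number was 40. The highest 3' untranslated summit was the taller in 65 genes, the highest coding summit in 33, and 4 were equal. The median ratio was 1.22, or 0.29 on the log2 scale (exact order-statistic 95% interval 0.07 to 0.52, counting genes). On the same transcript, which 53 genes allowed, the 3' untranslated summit was taller in 30 and the coding one in 21, and the median log2 ratio of 0.10 had an interval of -0.10 to 0.49 that includes 0. Genes with coding summits had a median highest 3' untranslated fold of 13.3, against 12.3 for the 633 without.

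The ratios within genes ran from 0.158 to 13.9. Pkm had 198 at nt 2287, in the 3' untranslated region, and a coding summit of 14.2 at nt 456 of another transcript, a ratio of 13.9. Ddb1 had 41.3 and 3.80, Nudt3 24.2 and 3.32, and the small GTPase gene Rhoc 28.0 and 4.27. Pcyox1l had 37.0 and 7.59, and Cbfa2t3, a transcriptional corepressor gene of blood progenitors, 22.3 and 5.22. In the opposite direction, the endosomal gene Rab21 had a 3' untranslated summit of 4.27 and a coding summit of 27.1, a ratio of 0.158. Arpp19 had 4.27 and 20.9, Selenos 3.32 and 10.4, the kinesin gene Kif18b 5.22 and 12.8, Hnrnpk 3.80 and 9.02, and Lrp10 7.12 and 16.1. Where the summits compared lay on different transcripts, each region label belonged to its own transcript model. For Lrp10 the 3' untranslated summit lay at nt 687 of a transcript and the coding summit at nt 2432 of another.

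**Figure D4:**
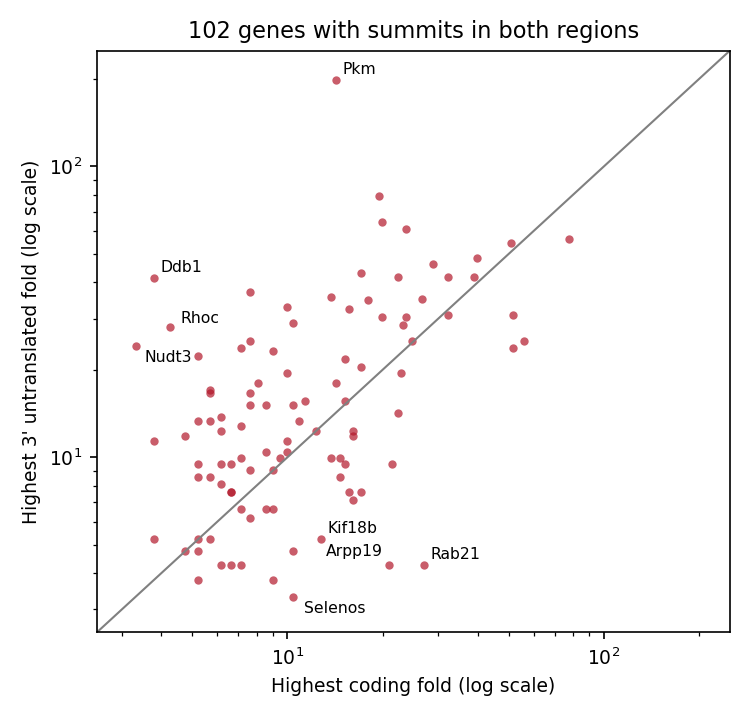
Highest 3' untranslated fold against highest coding fold (both log axes) for the 102 genes with both; the line marks equal folds and the 4 genes at each extreme of the ratio are named. Points above the line (65) outnumber those below it (33).

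Summits in all 3 regions were listed for 8 genes, Dbi, Actr10, Nup62, Dpy30, Acyp1, Ppp1r18, Arpc4 and Hnrnpk. The 3' untranslated summit was the tallest in Dbi (64.6, against 19.9 in each of the others) and in the dynactin gene Actr10 (30.4, against 19.9 in each of the others). In Dpy30, a subunit gene of histone methyltransferases, the 5' untranslated summit was the tallest, at 52.2 against 11.4 in the 3' untranslated region. It was also the tallest in Nup62 (7.12 against 5.22), Acyp1 (13.8 against 9.02), Ppp1r18 (12.8 against 5.22) and Hnrnpk (16.1 against 3.80). The coding summit was the tallest in Arpc4, an actin nucleation gene, at 51.7 against 30.9. Aars and 12 others had 3' and 5' untranslated summits without a coding one.

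Chemosensory receptors, proteins of the nose and the vomeronasal organ, formed a further group. The following family lists were chosen after seeing the members, and their counts are descriptions only. Of 25 odorant and vomeronasal receptor genes in the list, 24 had a 3' untranslated summit, 1 had a 5' untranslated summit and none had a coding one. The 25 were only 1.65% of the 1512 genes of these families. Any summit was listed for 9.96% of regulator and 22.8% of housekeeping genes. These families hold many similar copies, so the assignment of reads to a single member is uncertain. Their 28 3' untranslated summits ran from 3.80 on Vmn1r183 to 96.8 on Olfr1423, with a median of 11.2. Olfr143 had 50.3, Olfr63 42.2 and Vmn2r4 39.4. For 20 of the 28, on 18 genes, the summit position exceeded the whole RefSeq length of the gene, as for Olfr1423 with a summit at nt 3599 and a RefSeq gene of 933 bases. This held for 1.45% of all summits with a RefSeq length, for 2.88% in the 3' untranslated region (24 of 832) and for 2 coding summits. The RefSeq length is the whole gene span with introns, 22797 bases for Pkm, while the position is counted on the transcript. Genes with long introns can thus hardly exceed it, and these shares are not like for like with the receptor genes. Sf3b5, with a summit at nt 3771 and a RefSeq gene of 734 bases, was among the other 4 members. By RefSeq spans none of the 25 receptor genes overlapped another protein-coding gene. For the 18 genes above the span is shorter than the summit position, so overlap at the summit itself cannot be judged.

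Neuronal channel, receptor and synapse families gave a similar picture, with 3' untranslated summits on 13 of 16 listed genes (81.3%; Clopper-Pearson 95% interval 54.4% to 96.0%) and coding summits on 2. Shank1, a postsynaptic scaffold gene, had 161 at nt 7992 and 21.8 at nt 7226, and its RefSeq span overlaps 1700008O03Rik. The kainate receptor subunit gene Grik2 had 79.3 at nt 7738, and Ntrk3, a neurotrophin receptor gene, 66.9 and 45.1 at nt 16794 and 16942. Gabra2, a GABA receptor subunit gene, had 34.7, and Adam22 was lowest at 3.32. Without these and the chemosensory families, the 3' untranslated share of all summits was 43.7% in place of 44.9%, and the ratio of medians to other summits remained 1.13.

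**Figure D5:**
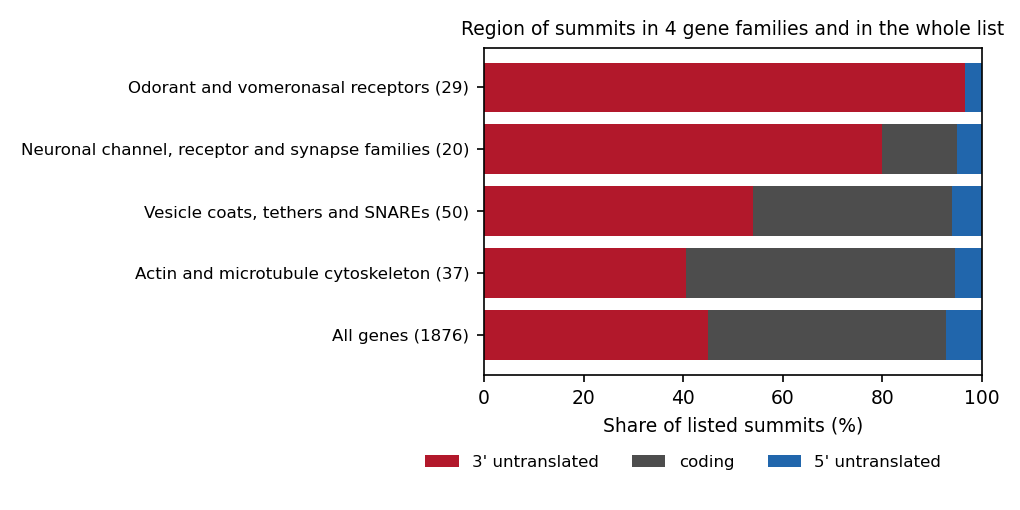
Share of listed summits (%) in the 3' untranslated region, coding sequence and 5' untranslated region for 4 gene families and for the whole list; the number of summits is in brackets. Of 29 chemosensory receptor summits 28 are in the 3' untranslated region, against 44.9% over all genes.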

How the data were processed

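The labels describe 6 libraries of 32D cells in 3 groups of 2 (ac4C antibody, IgG, input). Per the submitters' processing notes, cutadapt, Bowtie2, MACS2 and the build GRCm39 were used; the sources used here give no version, parameter or control for the peak call. The authors deposited 1 peak list; per the file headers it holds each summit's fold enrichment, a ratio, and its q-value as −log10. The planned position minus coding length was not run, since no protein or transcript sequence was at hand; no sequence is shown for the same reason.

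Members were all entries with the 3' untranslated label. Medians have exact order-statistic intervals and shares Clopper-Pearson intervals at 95% (Python 3.11.15, scipy 1.17.1), checked on simulated data. No test was run: summits are not replicates. Of 1485 symbols 1475 matched a RefSeq table (GRCm38.p6, used for names, lengths and overlaps; no coordinates are given). The members and the 20 gene lists were chosen with earlier results of these data known, and 4 family lists after seeing the members; a gene can be on several lists, and Cycs and Dcaf13 are on both sides. Genes named were the 20 tallest, the 4 highest and the lowest per list, those with 3 or more summits, the extremes of position and ratio, and 26 fixed genes; others were picked after their values were seen, and a few genes under this rule are not reported here.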

Additional observations from a re-analysis of the deposited data

How the results depend on the processing

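Alternatives kept only summits at or above the median fold, only the strongest summit of each gene, only genes on 1 transcript or only q-values under 0.001. Others compared with coding summits alone, took mean folds or 1 transcript within a gene, or counted genes by their strongest summit. Added after seeing the data were runs without genes that overlap another, without chemosensory and neuronal families and without summits beyond the RefSeq length. At or above the median fold, the 3' untranslated share of summits was 47.5%, the ratio of median folds turned to 0.976 (a selection on the fold itself), and 34 genes had both 3' untranslated and coding summits. Without genes on more than 1 transcript, 40 genes had both and the median position was nt 2422. The gap between regulators and housekeeping genes took 6 other values over 8 alternatives (24.8 to 30.9 percentage points) and the median log2 ratio within genes 4 over 9 (0.10 to 0.32), all in the direction reported. The 3' untranslated share took 7 other values over 7 alternatives (43.7% to 47.5%) and the median position 6 over 7 (nt 2168.5 to 2422). The ratio of median folds took 4 over 8 (0.976 to 1.18). The number of genes with both kinds ran from 34 to 102 over 7 alternatives. Any other alternative left the value as it was or repeated one within these ranges. No paired analysis was possible because only 1 pooled list was analysed; for the same reason no replicate could be left out. Depth is unknown, and pileups of the 3' untranslated summits ran from 5 to 417 fragments.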

Other observations

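Vesicle coat, tether and SNARE genes, a list chosen after seeing the members, had 3' untranslated summits on 25 of 40 listed genes (62.5%, against 49.5% of all listed genes), with a median fold of 16.1. Copz1, a COPI coat subunit gene, had 42.7, the SNARE gene Vamp5 34.2, the Golgi tether gene Cog7 29.4 and Ap3s1, an adaptor subunit gene of lysosomal sorting, 28.0. Vps29, a retromer gene, was lowest at 4.75. Cargo receptors of the early secretory pathway were listed with 27.1 on Tmed5 and 22.8 on Tmed2.

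Actin and microtubule genes, chosen in the same way, had 3' untranslated summits on 14 of 25 listed genes (56.0%) and coding summits on 17. Of their 37 summits 40.5% were 3' untranslated and 54.1% coding, against 44.9% and 48.0% of all listed summits. The median fold of their 3' untranslated summits was 25.2, and that of their coding summits 12.8. Besides Mylk4 and Actg1, genes with a 3' untranslated summit were Arpc4 at 30.9, Actr10 at 30.4, the actin cross-linker gene Actn4 at 29.0 and the dynein subunit gene Dync1li1 at 25.2. A further 424 genes with 486 summits in the 3' untranslated region were on no list, and their median fold was 10.9. Zbed6, which lies within Zc3h11a, and Zc3h11a itself both had a 3' untranslated summit of 3.80.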
